A study of Eucalyptus camaldulensis with 12 samples.

Results

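The genes described here are 9 molecular chaperones of the families HSP70, HSP90, HSP100 and J-domain (DnaJ) proteins, followed in leaves of Eucalyptus camaldulensis seedlings under water stress. They were chosen by family from the gene names in the study's own tables, and each was joined to a single predicted transcript, so that 9 of the 43180 distinct transcripts of the count table are at issue. Of these, 6 were joined by the coordinates of a table that the study had called on S1 and C1 (CUFF.10732, Eucgr.J03127, Eucgr.F03980, Eucgr.J03121, Eucgr.I01393 and Eucgr.G02581), and 3 by the positions of single nucleotide polymorphisms (SNPs) that fell inside a predicted transcript (Eucgr.J00025, Eucgr.A02734 and Eucgr.K02198). The S1 against C1 values of the 6 are therefore a description and no independent evidence, and since S1 or C1 also enters S1 against S0, C1 against C0 and the difference of these changes, counts and medians over the genes there are not independent of the choice either. The SNP table in turn was called on allele frequencies in the S0 and S1 reads, so that the 3 genes found through it were chosen on libraries that S1 against S0 uses, and genes with many reads are more likely to enter such a table.

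The libraries come from seedlings of 3 populations, Katherine (dry tropics), Mt Isa (semi-arid tropics) and Petford (humid tropics), kept in pots in a glasshouse. S1 is the leaf RNA of 10 seedlings per population after 2 months at 30% of field capacity, C1 that of 5 other seedlings watered to field capacity over the same months, S0 that of the 10 later stressed seedlings before the treatment, and C0 that of the 5 control seedlings at that earlier date. Each of the 12 libraries is a bulk, with 2 leaves per seedling taken before noon. A group holds 3 libraries, 1 per population, which serve as the replicates. In fits of groups without a term for population, p-values measure the spread between populations. A library thus averages over seedlings, and a bulk cannot tell more transcripts per cell from more cells that carry them.

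Chaperones keep proteins folded when cells are stressed and bring new ones to their folded state. HSP70 proteins bind and release unfolded stretches in a cycle driven by ATP, J-domain proteins deliver substrates to HSP70 and speed that cycle, and HSP90 finishes the folding of signalling proteins and receptors. HSP100 proteins are ring-shaped unfoldases, and in plants the CLPC type works in the chloroplast, where it feeds proteins to the Clp protease and takes part in import. In leaves many genes of these families are controlled by heat shock transcription factors, and others are made all the time.

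Library totals ran from 2343370 to 6951584 reads in S1, from 1759873 to 2987962 in C1, from 1726793 to 6126611 in S0 and from 1902802 to 3277834 in C0. For Mt Isa, the source named for the C1 and the S0 library contradicts the title, and the grouping here follows the title and the sample group label. The Mt Isa C1 library had 5.57 CPM (reads of a transcript scaled by library size) of the DnaJ gene G02581, beside 2.91 and 4.84 CPM in the other C1 libraries, and the Mt Isa S0 library had 94.4 CPM, beside 131 and 181 CPM in the other S0 libraries. These values cannot settle the labels. G02581 was chosen on S1 and C1 under the same labels, and the Mt Isa S0 value also lies within the C0 range of 77.8 to 117 CPM. The leaf markers RBCS1A and LHB1B1 together held 6544 to 8422 CPM in S1, 12663 to 21797 CPM in C1, 31477 to 76678 CPM in S0 and 37959 to 47732 CPM in C0. The xylem markers on hand, IRX3 and IRX12, together held 324 to 376 CPM in S1, against 24.1 to 51.7 CPM in C1, 34.1 to 56.0 CPM in S0 and 25.4 to 38.4 CPM in C0. Both xylem markers, which were found by name in the study's tables, had reads in all groups, though IRX3 was near the floor in its lowest C1 library. IRX3 had 250 to 285 CPM in S1 and 0.93 to 6.66 CPM in C1, and IRX12 had 63.1 to 91.1 CPM in S1 and 23.2 to 45.1 CPM in C1. The markers were named from the study's tables as well, and IRX3 is among the genes that the study called on S1 and C1. The difference of IRX3 between these groups is therefore no independent evidence. The leaf markers were also lower in C1 than in C0, so that they moved with the date in watered seedlings as well as with the treatment. The part of these markers in the chaperone results was not tested.

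Most of the 9 genes were higher in stressed leaves, but they did not all move in the same direction. Together they took 0.984% ± 0.145 of all reads in S1, 0.628% ± 0.0917 in C1, 0.401% ± 0.0313 in S0 and 0.364% ± 0.0571 in C0 (SD, n = 3 each), a sum that the choice of genes on S1 and C1 affects. Over the stress period, S1 against S0, 6 genes were higher, 1 was lower and 2 were not called by edgeR's quasi-likelihood test at a Benjamini-Hochberg adjusted p under 0.01. Of all 40244 transcripts tested, 8.85% were called higher and 10.3% lower in that comparison, and since 5 of the 6 higher genes were taken from the table called on S1 and C1, nothing is read from the count. In watered seedlings over the same months, C1 against C0, 2 genes were higher and 2 lower, against 2.35% and 3.9% of the 36197 transcripts tested. The median log2 change of the 9 genes was 3.13 for S1 against S0, beside 0.02 over all transcripts, and 0.56 for C1 against C0, beside 0.05.

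**Figure D1:**
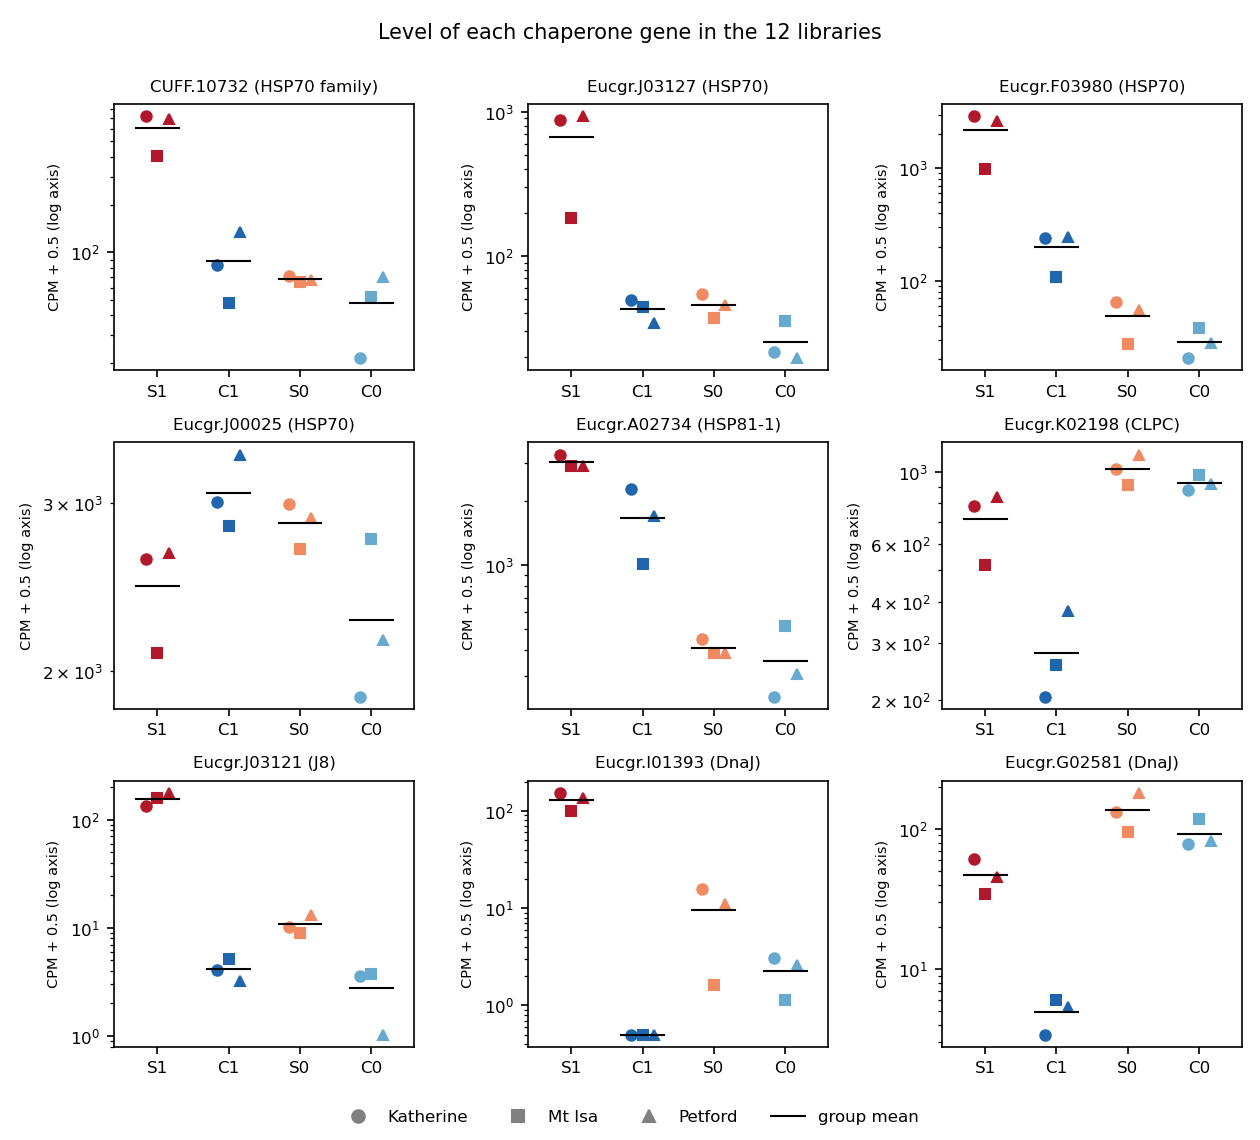
CPM plus 0.5, on a log axis, of each of the 9 chaperone genes in the 12 libraries, by group; symbols mark the population and the bars the group mean. In 6 panels the S1 libraries lie above all others, while J00025 stays within 1879 to 3367 CPM and the C1 libraries of K02198 and G02581 lie below the rest.

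Among the 4 HSP70 genes, the ATP-driven chaperones, 3 rose over the stress period and 1 was not called. Eucgr.F03980 lies on scaffold 6 of the draft Eucalyptus grandis genome, from 48079025 to 48081589, and its closest Arabidopsis protein is a cytosolic HSP70. It had 2894, 990.2 and 2649.7 CPM in the Katherine, Mt Isa and Petford S1 libraries, 239, 107 and 247 CPM in C1, 64.2, 26.7 and 54.3 CPM in S0, and 20.0, 37.3 and 27.5 CPM in C0. All S1 libraries lay above all C1 libraries, and all C1 libraries lay above those of S0 and C0, which overlapped. The gene was 43.1-fold higher in S1 than in S0, a log2 change of 5.43 ± 0.45 (SE, adjusted p = 4.73e-06 by edgeR), and by population the ratio was 45.1, 37.0 and 48.8. It was also 6.74-fold higher in C1 than in C0, with a log2 change of 2.75 ± 0.31 (adjusted p = 9.64e-05 by edgeR), so that the watered seedlings moved in the same direction. Here the populations differed more, with ratios of 12.0 in Katherine, 2.87 in Mt Isa and 8.98 in Petford.

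Eucgr.J03127 lies on scaffold 10 from 38345081 to 38347550 and matches the same Arabidopsis HSP70 protein. It had 879.5, 184 and 929 CPM in S1, 49.1, 43.6 and 33.6 CPM in C1, 54.1, 36.4 and 45.0 CPM in S0, and 21.0, 35.1 and 19.02 CPM in C0. The Mt Isa S1 library was the lowest of its group by a wide margin but still lay above every library of the other groups. The log2 change was 3.83 ± 0.49 for S1 against S0 (SE, adjusted p = 0.000112 by edgeR), and the ratio was 16.3 in Katherine, 5.06 in Mt Isa and 20.7 in Petford. Without the Mt Isa S1 library the log2 change was the highest of the leave-one-out fits, at 4.27, and the lowest was 3.53. In C1 against C0 it was 1.61-fold higher, a log2 change of 0.69 ± 0.25 that was not called (adjusted p = 0.108 by edgeR). Since both dates sampled the same watered seedlings, the fit was repeated with population as a block, where the adjusted p was 0.00798 by edgeR. In S1 against S0 such a block gave an adjusted p of 1.45e-74 by edgeR, in spite of the uneven ratios. P-values of the blocked fits over time thus do not measure the spread of a single gene between populations. Their calls are given as alternatives only.

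CUFF.10732, an HSP70 family member with no Eucalyptus grandis gene model, fills positions 1 to 982 of the small scaffold 1109 and so begins at the scaffold's edge. It had 719, 407 and 688 CPM in S1, 82.3, 47.3 and 133 CPM in C1, 70.8, 64.9 and 66.2 CPM in S0, and 21.0, 51.5 and 69.7 CPM in C0. Only S1 stood apart, since the other groups overlapped. The gene was 8.76-fold higher in S1 than in S0 (log2 change 3.13 ± 0.23, SE, adjusted p = 2.14e-06 by edgeR), with ratios of 10.2, 6.27 and 10.4 by population. In C1 against C0 the log2 change was 0.86 ± 0.38 and was not called (adjusted p = 0.203 by edgeR). By population the ratios were 3.92 in Katherine, 0.92 in Mt Isa and 1.91 in Petford, so that Mt Isa did not rise. With population as a block the adjusted p was 0.00176 by edgeR, with the limit given for J03127. In the blocked fit, 4 of the 9 genes were called higher in C1 than in C0, against 5.26% of all transcripts tested.

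The fourth HSP70 gene, Eucgr.J00025, lies on scaffold 10 from 506818 to 510160 and was identified by 15 SNP positions. It had 2616, 2089 and 2658 CPM in S1, 3003.5, 2834 and 3367 CPM in C1, 2988, 2684 and 2889 CPM in S0, and 1879, 2749 and 2154 CPM in C0. The S1 libraries were lower than those of C1 and of S0 and overlapped those of C0. None of these differences was called. The log2 change was -0.25 for S1 against S0, with a 95% interval of -0.64 to 0.14, it was -0.43 for S1 against C1, with an interval of -0.83 to -0.04, and it was 0.41 for C1 against C0, with an interval of 0.02 to 0.80. The upper end of the first interval, 0.14, lies below the 95% intervals of CUFF.10732, J03127 and F03980 in S1 against S0, which begin at 2.62, 2.76 and 4.44. Those genes were taken from the table called on S1 and C1 and J00025 by SNP position, so this separation is not independent of the choice. HSC70-1 (Eucgr.J00023), an HSP70 gene also found by SNP position, had an interval of -0.41 to 0.37.

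Because a ratio of reads of different genes in 1 library does not depend on the scaling between libraries, the HSP70 genes were also set against J00025. For every 100 reads of J00025 there were 85.9 ± 33.8 reads of F03980 in S1, 6.36 ± 2.25 in C1, 1.68 ± 0.60 in S0 and 1.23 ± 0.15 in C0 (SD, n = 3 each). For J03127 there were 25.8 ± 14.7 reads in S1, 1.39 ± 0.34 in C1, 1.58 ± 0.23 in S0 and 1.09 ± 0.20 in C0. CUFF.10732 gave 24.3 ± 4.25 reads in S1, 2.79 ± 1.15 in C1, 2.36 ± 0.063 in S0 and 2.08 ± 1.07 in C0. J00025 made up 44.0% ± 11.2 of the reads of the 4 HSP70 genes in S1, against 90.5% ± 2.55 in C1, 94.7% ± 0.71 in S0 and 95.8% ± 0.97 in C0. These are shares of reads, not corrected for transcript length. They leave out the HSP70 genes followed further below and so do not describe all HSP70 reads. Among those left out, Eucgr.L03563 had a mean of 4175 CPM in S1, 398 in C1, 163 in S0 and 127 in C0. HSC70-1 (Eucgr.J00023) had means of 1222, 1198, 1209 and 1015 CPM in the same order. Reads of near-identical HSP70 copies may be split among them or assigned to the wrong copy, so that the values of a single HSP70 gene are uncertain to that extent.

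**Figure D2:**
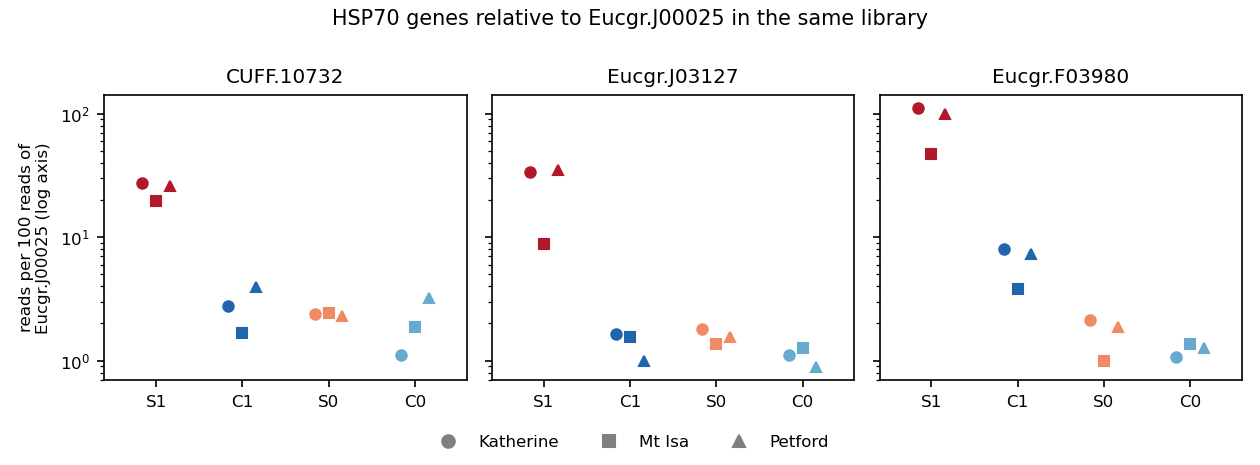
Reads of CUFF.10732, J03127 and F03980 per 100 reads of J00025 in the same library, on a log axis, by group; symbols mark the population. The S1 libraries reach 19.5 to 27.5 for CUFF.10732, 8.83 to 34.9 for J03127 and 47.4 to 111 for F03980, and the other groups stay below 8.

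The HSP90 gene, Eucgr.A02734 on scaffold 1 from 37934135 to 37937841, rose in both stressed and watered seedlings. It matches HSP81-1, a cytosolic HSP90 that is inducible by heat in Arabidopsis, and was identified by 2 SNP positions. It had 3302, 2928 and 2929 CPM in S1, 2283, 1013 and 1698 CPM in C1, 449, 386 and 387 CPM in S0, and 241, 518 and 308 CPM in C0. Every S1 library lay above every C1 library, and every C1 library lay above those of S0 and C0. In stressed seedlings the change over time was 7.36-fold (log2 2.88 ± 0.19, SE, adjusted p = 8.45e-07 by edgeR), and the populations were close to each other at 7.35, 7.58 and 7.57. In watered seedlings it was 4.55-fold (log2 2.19 ± 0.31, adjusted p = 0.000449 by edgeR), with 9.47 in Katherine, 1.96 in Mt Isa and 5.50 in Petford. The rise under stress exceeded that under watering by 0.68 ± 0.38 on the log2 scale and was not called (adjusted p = 0.259 by edgeR, 95% interval -0.12 to 1.48). S1 against C1 gave a log2 difference of 0.77 ± 0.26, also not called (adjusted p = 0.0392 by edgeR).

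The HSP100 gene, Eucgr.K02198 or CLPC, fell in watered seedlings and stayed closer to its earlier level in stressed ones. It encodes the unfoldase that works with the chloroplast Clp protease, spans 29242403 to 29248796 of scaffold 11 and was identified by 2 SNP positions. It had 783, 519 and 837 CPM in S1, 205, 255 and 376 CPM in C1, 1020.5, 909 and 1126 CPM in S0, and 877, 975 and 914 CPM in C0. The C1 libraries were the lowest, the S1 libraries came next, and those of S0 and C0 overlapped. It was 3.38-fold lower in C1 than in C0 (log2 -1.76 ± 0.21, SE, adjusted p = 0.000167 by edgeR). Over the stress period the log2 change was -0.55 ± 0.21, which was not called (adjusted p = 0.0681 by edgeR). Here too both dates sampled the same seedlings, and a population block gave an adjusted p of 0.00301 by edgeR, with the limit given for J03127. In that fit 2 of the 9 genes were called lower, against 15.4% of all transcripts.

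At the end of the treatment CLPC was 2.37-fold higher in S1 than in C1 (log2 1.24 ± 0.26, SE, adjusted p = 0.00318 by edgeR). That call was lost without the Katherine S1, the Petford S1, the Katherine C1 or the Mt Isa C1 library, where the adjusted p was 0.0127, 0.0154, 0.0143 and 0.0189. The log2 change then stayed between 1.02 and 1.18.

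The 3 J-domain genes, which code for partners of HSP70, followed 2 patterns. Eucgr.J03121, named J8 after a small J-domain protein of the Arabidopsis chloroplast, lies on scaffold 10 from 38276730 to 38278228, 66.9 kb before the HSP70 gene J03127, with 3 other predicted transcripts in between. It had 133, 158 and 177 CPM in S1, 3.55, 4.64 and 2.72 CPM in C1, 9.73, 8.53 and 12.5 CPM in S0, and 3.07, 3.22 and 0.528 CPM in C0. S1 stood far above all other groups, the S0 libraries lay above those of C1 and C0, and C1 and C0 overlapped. The change over the stress period was 14.3-fold (log2 3.84 ± 0.23, SE, adjusted p = 5.83e-07 by edgeR), and the ratio was 13.7, 18.5 and 14.1 in the populations. In C1 against C0 the log2 change was 0.56 ± 0.60, with a 95% interval of -0.73 to 1.86, and at 1 to 11 reads per library a change of this size was not detectable.

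Eucgr.I01393, a DnaJ gene on scaffold 9 from 24398680 to 24399588, was the only one of the 9 without a read in a whole group. It had 153, 98.9 and 135 CPM in S1, 0 CPM in each C1 library, 15.2, 1.14 and 10.6 CPM in S0, and 2.56, 0.644 and 2.11 CPM in C0. The S1 libraries held 1881 reads against 0 in C1, and with a floor of 3 reads over the C1 group this is at least 384-fold higher in S1. In S0 the Mt Isa library held only 2 reads while Katherine and Petford held 39 and 50. Over the stress period the gene was 13.1-fold higher (log2 3.71 ± 0.44, SE, adjusted p = 6.33e-05 by edgeR), with ratios of 10.1, 87.0 and 12.8. Against the 11 reads of C0, the empty C1 libraries were at least 4.51-fold lower by the same floor, and the difference was not called (adjusted p = 0.0439 by edgeR).

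Eucgr.G02581, a longer DnaJ protein gene on scaffold 7 from 44232374 to 44235639, went the other way. It had 60.9, 33.9 and 44.6 CPM in S1, 2.91, 5.57 and 4.84 CPM in C1, 131, 94.4 and 181 CPM in S0, and 77.8, 117 and 81.9 CPM in C0. The groups fell into 3 tiers, with C1 lowest, S1 between and S0 and C0 overlapping at the top. It was lower in S1 than in S0 (log2 -1.59 ± 0.28, SE, adjusted p = 0.00111 by edgeR) and 21.5-fold lower in C1 than in C0 (log2 -4.43 ± 0.27, adjusted p = 2.89e-06 by edgeR). The fall was seen in all 3 populations of each arm, with 2.15-fold, 2.79-fold and 4.05-fold in stressed seedlings, and 26.8-fold, 21.0-fold and 16.9-fold in watered ones. G02581 was thus higher in S1 than in C1 (log2 3.30 ± 0.30, adjusted p = 1.42e-05 by edgeR) although it had fallen in both arms, and CLPC showed the same order of groups.

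**Figure D3:**
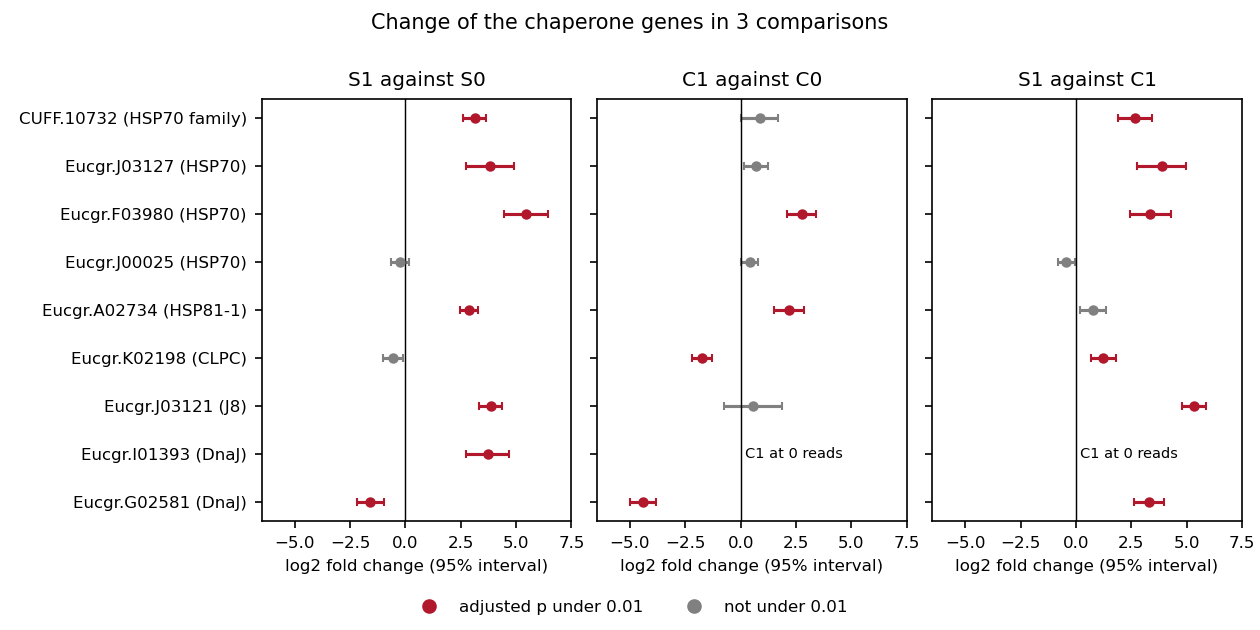
Log2 fold change with its 95% interval for each chaperone gene in S1 against S0, C1 against C0 and S1 against C1, from edgeR's quasi-likelihood fit; red points have an adjusted p under 0.01. G02581 is at -1.59, -4.43 and 3.30 in the 3 panels and A02734 at 2.88, 2.19 and 0.77; I01393 is left out where C1 had no read.

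Comparing the leaves of stressed with those of watered seedlings at the end of the treatment, S1 against C1, 7 of the 9 genes were higher and none lower by edgeR, against 9.81% of the 40440 transcripts tested being called higher. Since 6 of the 7 were taken from a table called on these libraries, the count says nothing about the family. F03980 was 10.2-fold higher (log2 3.35 ± 0.42, SE, adjusted p = 0.000123 by edgeR), J03127 14.6-fold (log2 3.87 ± 0.51, adjusted p = 0.000163 by edgeR), CUFF.10732 6.36-fold (log2 2.67 ± 0.35, adjusted p = 0.000154 by edgeR) and J8 40.6-fold (log2 5.34 ± 0.25, adjusted p = 3.25e-07 by edgeR). By population, J8 was 37.5-fold, 34.1-fold and 64.9-fold higher, while J03127 was 17.9-fold, 4.23-fold and 27.7-fold higher. The median log2 difference of the 9 genes was 3.30, also with I01393 at its bound, beside -0.04 over all transcripts.

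The change over time in stressed seedlings, net of that in watered seedlings over the same dates, was positive and called for 7 of the 9 genes, against 4.04% of all 43146 transcripts tested. This difference contains S1 minus C1, on which 6 of the 7 genes were chosen, and nothing is read from the count. It was 3.33 ± 0.53 on the log2 scale for J8, 3.15 ± 0.59 for J03127, 2.86 ± 0.42 for G02581, 2.68 ± 0.55 for F03980, 2.27 ± 0.50 for CUFF.10732 and 1.21 ± 0.31 for CLPC (SE, adjusted p from 7.33e-05 to 0.00953 by edgeR over the 12 libraries), and I01393 was also called (adjusted p = 0.000925). For G02581 and CLPC the positive sign stands for a smaller fall under stress, for CUFF.10732, J03127, F03980 and J8 for a larger increase, and for I01393 for a rise under stress beside 0 reads in C1 and 11 in C0. The call for CLPC was the least stable, since it held in 2 of the 12 leave-one-out fits, those without the Mt Isa S1 or the Petford C1 library, with an adjusted p of up to 0.0401 in the rest. CUFF.10732 lost its call without the Katherine C1, Petford S0, Mt Isa C0 or Petford C0 library (adjusted p = 0.0102, 0.0119, 0.0112 and 0.0159), and F03980 without the Mt Isa C0 library (adjusted p = 0.0107). Without the Mt Isa C1 library, whose labels conflict, 6 of the 9 genes were called, and 6 likewise without the Mt Isa S0 library. Leaving out these same libraries left 6 genes called in S1 against C1, 7 in S1 against S0 and 4 in C1 against C0.

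S0 and C0 were both sampled before the treatment, and none of the 9 genes was called in S0 against C0 by edgeR, against 0.191% of the 36048 transcripts tested. All 9 log2 differences were nonetheless positive, from 0.13 to 2.44 with a median of 0.54, beside 0.03 over all transcripts. At an unadjusted p under 0.05, 5 of the 9 were higher in S0, against 4.22% of all transcripts. J8, which had the smallest p, was at 10.3 ± 2.05 CPM in S0 and 2.27 ± 1.51 CPM in C0 (SD, n = 3 each), a log2 difference of 2.09 ± 0.49 (SE, adjusted p = 0.159 by edgeR). DESeq2 called none of the 9, whereas edgeR's exact test and the fit over all 12 libraries called J8 (adjusted p = 0.00902 and 0.00771). The S0 bulks hold 10 seedlings and those of C0 hold 5.

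Populations were compared over all groups, with the group as a term, and none of the 9 genes was called, against 1.18% of the 43146 transcripts tested by edgeR, nor by DESeq2. At an unadjusted p under 0.05 there were 3 genes (CUFF.10732, F03980 and I01393), against 12.4% of all transcripts. In F03980 the Mt Isa libraries were 0.83 lower on the log2 scale than those of Katherine, and the Petford libraries 0.03 lower (adjusted p = 0.0942 by edgeR). Without the Mt Isa C0 library this gene was called, with Mt Isa 1.29 lower (adjusted p = 1.2e-05 by edgeR), and I01393 was called without the Mt Isa S1 library, with Mt Isa 2.94 lower (adjusted p = 0.00431 by edgeR). Within groups, the Mt Isa library had the lowest CPM of the 3 for 8 of the 9 genes in S1 and the highest for 7 of the 9 in C0. Dividing by library totals, an alternative chosen after seeing the data, gave 7 of 9 in S1 and again 7 of 9 in C0. In C1 Mt Isa was lowest for 4 and highest for 2 of the 8 genes with reads, by either scaling. In S0 the order rested on the scaling, since Mt Isa was lowest for all 9 genes by TMM-scaled CPM and for 3 of 9 by library totals. The Mt Isa library also had the lowest total of its group in S1, C1 and S0 and the highest in C0, and the part of depth in this order was not tested. No share over all transcripts is at hand for the order of populations, so nothing is read from these counts about the genes.

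Other genes of the same machinery were followed through 42 further genes named in the study's tables, of which 22 came from the table called on S1 and C1 and 20 from SNP positions. In S1 against S0, 16 of the 22 were higher and 5 lower by edgeR, with a median log2 change of 3.73, while of the 20 taken by SNP position 4 were higher, none lower and 16 not called, with a median of 0.03. In the fit with a population block, 6 of the 20 and 17 of the 22 were higher, and the added genes were Eucgr.D01807, Eucgr.B02909 and CUFF.5969. Of all 40244 transcripts tested, 8.85% were called higher and 10.3% lower without the block, and 5661 transcripts were called higher with it. The blocked fit allows for the repeated samples of the same seedlings, but its p-values do not measure the spread of a single gene between populations. In C1 against C0, 5 of the 42 were higher and 6 lower, against 2.35% and 3.9% of the 36197 transcripts tested. A population block brought the called genes to 21, and those over all transcripts from 2263 to 4264. These lists are shaped by how the genes were chosen, on S1 and C1 or on S0 and S1, and their counts and medians are given for description only.

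Of 5 other HSP70 genes, 4 were higher in S1 than in S0 and 1 was not called. HSP70T-2 (Eucgr.H03518), a truncated HSP70, had 165, 79.7 and 91.4 CPM in S1 against 1.95, 3.41 and 2.76 CPM in S0 (log2 5.34 ± 0.36, SE, adjusted p = 1.11e-06 by edgeR). HSP91 (Eucgr.J02991), a large HSP70-like protein in spite of its name, had the smallest called rise at 1.80 ± 0.18 (adjusted p = 1.5e-05 by edgeR). The gene that was not called, HSC70-1 (Eucgr.J00023), is the predicted HSP70 gene 48.1 kb before J00025 and had a log2 change of -0.02 ± 0.18 (adjusted p = 0.96 by edgeR). Both HSP70 genes at this place on scaffold 10 were thus without a call, and J00023 had 1235, 1041 and 1392 CPM in S1 and 1219, 1168 and 1242 CPM in S0.

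Of 2 other HSP90 genes, HSP90.1 (Eucgr.E00653) was higher under stress, at 324, 94.7 and 156 CPM in S1 against 12.5, 11.4 and 8.91 CPM in S0 (log2 4.12 ± 0.41, SE, adjusted p = 1.69e-05 by edgeR). In watered seedlings its log2 change was -0.61 ± 0.27 and was not called (adjusted p = 0.2 by edgeR). HSP81-2 (Eucgr.C01179) was not called in either arm, with log2 changes of -0.40 ± 0.18 for S1 against S0 and 0.25 ± 0.17 for C1 against C0. Of 4 other Clp genes only CLPB3 (Eucgr.I01982), an HSP100 of the chloroplast that dissolves aggregates, was called in S1 against S0, at 1.66 ± 0.23 on the log2 scale (adjusted p = 0.000178 by edgeR). In watered seedlings 3 of these 4 fell and none rose, and CLPB3 was among them at -1.12 ± 0.18 (adjusted p = 0.00108 by edgeR), the direction that CLPC also took there.

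Of 7 other J-domain genes, 2 were higher in S1 than in S0, 1 was lower and 4 were not called. Eucgr.B02899 rose by 2.78 ± 0.29 on the log2 scale (SE, adjusted p = 2.76e-05 by edgeR), and Eucgr.H03319 fell to 7.18, 10.0 and 6.16 CPM in S1, against 50.6, 50.1 and 43.9 CPM in S0 (log2 -2.69 ± 0.24, adjusted p = 7.88e-06 by edgeR). Co-chaperones divided as well, with 4 of 7 higher and 1 lower. BAG6 (Eucgr.D02334), which binds HSP70 through its BAG domain, rose by 5.43 ± 0.50 (adjusted p = 8.98e-06 by edgeR), whereas ROF2 (Eucgr.K01672), an HSP90-binding prolyl isomerase, had 0.82, 3.47 and 0.616 CPM in S1 against 70.0, 58.6 and 86.2 CPM in S0 (log2 -5.81 ± 0.45, adjusted p = 2.82e-06 by edgeR). ROF2 also fell in watered seedlings, by 1.70 ± 0.20 (adjusted p = 0.000121 by edgeR).

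Of 5 chaperonin genes, 2 were higher in S1 than in S0, a TCP-1 subunit (Eucgr.F01711) by 5.57 ± 0.31 and the RbcX-like Eucgr.B03687, named for a factor in Rubisco assembly, by 4.82 ± 0.23 on the log2 scale (SE, adjusted p = 3.72e-07 and 2.15e-07 by edgeR). Of 5 genes for folding proteins of the endoplasmic reticulum, 2 were lower, none was higher and 3 were not called, and both lower ones were taken from the table called on S1 and C1. The calreticulins CRT1b (Eucgr.H03284) and CRT3 (Eucgr.B01429), which fold glycoproteins, fell by 2.02 ± 0.23 and by 2.36 ± 0.31 in S1 against S0 (adjusted p = 5.48e-05 and 0.000136 by edgeR), and both rose in C1 against C0, by 1.01 ± 0.19 and 1.499 ± 0.28 (adjusted p = 0.00389 and 0.00363 by edgeR).

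Of 7 genes of heat shock factors, a family that controls many chaperone genes, 6 were higher in S1 than in S0 and 1 was lower. The HSFA2 copy Eucgr.C03452 had 42.0, 2.31 and 24.9 CPM in S1 and no read in C1, S0 or C0, so that S1 was at least 80.5-fold above S0 with a floor of 3 reads over the S0 group. The Mt Isa S1 library held only 6 of its 373 reads. HSFB4 (Eucgr.F02327) fell by 2.41 ± 0.39 on the log2 scale (SE, adjusted p = 0.000615 by edgeR). Within S1, the Mt Isa library was the lowest for the 6 factors that rose, as for 8 of the 9 chaperone genes. All 6 were taken from the table called on S1 and C1, and no share over all transcripts is at hand, so nothing is read from this likeness. For HSFB2A (Eucgr.K00238) the margin was narrow, at 48.1 CPM against 48.8 CPM in Petford. Mt Isa was the highest for HSFB4, at 3.47 CPM beside 1.64 and 2.92 CPM, from only 8 to 19 reads per library.

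**Figure D4:**
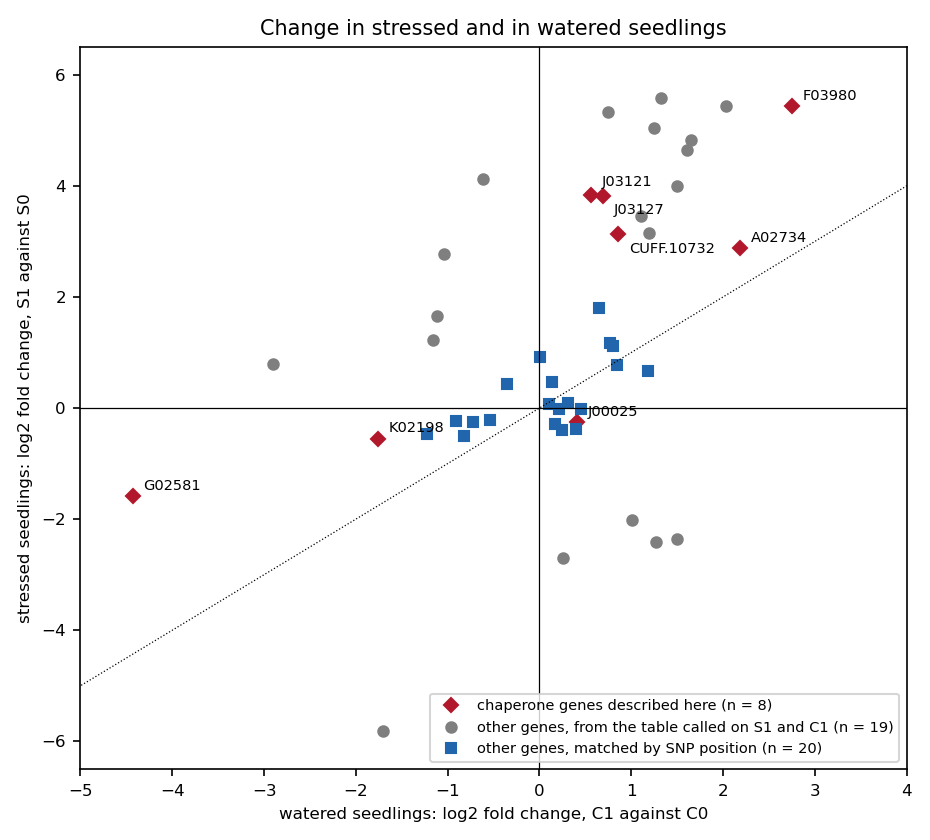
Log2 fold change of S1 against S0 (vertical axis) against that of C1 against C0 (horizontal axis) for 47 of the 51 listed genes; the dotted line marks equal change, and 4 genes without a read in a C group, or too few for a test, are left out. F03980 and A02734 lie far to the upper right, G02581 far to the lower left, and 16 of the 20 other genes taken by SNP position were not called in S1 against S0.

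As a description of likeness, the log2 CPM of each of the 9 genes was compared over the 12 libraries, which share the 4 groups, with that of 2050 other named genes. F03980 was most like ATJ3 (Eucgr.J00583), a cytosolic J-domain partner of HSP70 in Arabidopsis (Pearson's r = 0.99), followed by the HSP70 gene Eucgr.L03563 and the mitochondrial small heat shock protein gene HSP23.6 (Eucgr.D02073). ATJ3 had 485, 365 and 527 CPM in S1, 256, 192 and 263 CPM in C1, 164, 131 and 171 CPM in S0, and 116, 122 and 129 CPM in C0, the same order of groups as F03980 over a smaller range. A02734 was most like the phosphatase gene PLL5 (Eucgr.K02151) and the genes of a stress-inducible protein (Eucgr.D02024) and the co-chaperone ROF1 (Eucgr.K02110), each with r = 0.98 to 0.99. J03127 was most like EIN3 (Eucgr.J00631), an HSFA2 copy (Eucgr.C03449) and an unnamed gene (Eucgr.J00269), with r of 0.97 to 0.98.

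CUFF.10732 was most like the RbcX-like gene Eucgr.B03687, a basic chitinase gene (Eucgr.I02271) and Eucgr.D01762 (r = 0.97 to 0.98), J8 most like a PLATZ factor (Eucgr.D02206), an RCC1 family gene (Eucgr.K03062) and Fes1A (Eucgr.A01287), an HSP70 co-chaperone (r = 0.97), and I01393 most like Eucgr.K01055, a kelch repeat gene (Eucgr.B03615) and a quinone reductase gene (Eucgr.B02266) (r = 0.97 to 0.99). G02581 and CLPC shared CP12 (Eucgr.K03545), a regulator of the Calvin cycle, among their 3 nearest genes (r = 0.98 and 0.97). For G02581 the others were a TPR protein gene (Eucgr.D02374) and PGR5-LIKE A (Eucgr.D01944), a thylakoid protein, and for CLPC they were CYP86A2 (Eucgr.D02302) and HCF152 (Eucgr.K03209), an RNA-binding protein of the chloroplast (r = 0.97 to 0.98). J00025, which the main edgeR fits did not call in any comparison, had weaker likenesses, with r of 0.88 to a CDC48-like gene (Eucgr.K01260) that stayed below 4 CPM in every library, 0.79 to its neighbour HSC70-1 (Eucgr.J00023) and 0.75 to an aldo/keto reductase gene (Eucgr.B01499). The genes compared came from tables called on S1 and C1 or on S0 and S1, a choice that affects these likenesses.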

How the data were processed

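Leaf mRNA of 12 bulks was sequenced as single-end reads of 65 bases. On the draft E. grandis genome the authors aligned them by Bowtie and TopHat (maximum intron 5000 bases), predicted transcripts from the pooled reads with Cufflinks and counted reads per transcript with BEDTools. The deposited values are whole-number counts per transcript, not normalized. Tool versions and genome release: not given in the sources used here. Reads that fit several copies and the strand of reads were treated as the authors' counting left them.

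Of 43425 rows, 245 repeats were removed. Gene names came from the study's tables, by coordinates with an Arabidopsis match at an E value of up to 1e-05, or by SNP position. Each of the 9 genes had 1 transcript, and none overlapped another transcript. The members, lists and tests were chosen with earlier results of these data known.

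Transcripts with at least 10 reads over the libraries of a fit were normalized by TMM and entered edgeR 4.0.16 (quasi-likelihood F test, 2-sided, Benjamini-Hochberg adjustment over all transcripts, call at 0.01) in R 4.3.3. The difference of changes is (S1 - S0) - (C1 - C0). Standard errors were derived from the log2 fold change and F. CPM are TMM-scaled over the 12 libraries, likeness used log2(CPM + 0.5), and bounds used a floor of 3 reads, covering counting error only. Named were all 9 genes, the genes with the largest and smallest called change of S1 against S0 in each other list, and the 3 most similar named genes. HSC70-1 and HSP81-2 were named outside this rule, after their values were seen. Alternatives were DESeq2 1.42.0, its size factors, no filter, edgeR's exact test, a fit on all 12 libraries, a population block and leaving out each library. The procedure was tested on simulated data. The study's own p-values entered only through its tables, from which the genes were chosen, and its fold changes were not used.

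In each population the same control seedlings were sampled at both dates, and so were the stressed ones, per the study's methods. Deviations from the group means correlated within a population at 0.217 to 0.238 between C1 and C0 and at 0.189 to 0.295 between S1 and S0, across transcripts.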

Additional observations from a re-analysis of the deposited data

Results flagged for a closer look

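The change over time in stressed seedlings differed from that in watered seedlings, by a test of the difference itself over the 12 libraries (edgeR, adjusted p under 0.01), for 7 of the 9 chaperone genes. The differences, S1 minus S0 less C1 minus C0 on the log2 scale, were 2.27 for CUFF.10732, 3.15 for J03127, 2.68 for F03980, 1.21 for CLPC (K02198), 3.33 for J8 (J03121) and 2.86 for G02581, and I01393, which had no read in C1, had an adjusted p of 0.000925. This difference contains S1 minus C1, on which 6 of the 7 genes (all but CLPC) were chosen, so it is no independent evidence for them.

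Of the other genes named above, the difference was 4.58 for HSP70T-2 (H03518), 1.15 for HSP91 (J02991), 4.75 for HSP90.1 (E00653), 2.78 for CLPB3 (I01982), 3.79 for the DnaJ gene B02899, 4.25 for the TCP-1 gene F01711 and 3.14 for the RbcX-like gene B03687. It was -2.96 for the DnaJ gene H03319, -4.10 for ROF2 (K01672), -3.05 for CRT1b (H03284), -3.88 for CRT3 (B01429) and -3.68 for HSFB4 (F02327).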

How the results depend on the processing

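Over 573 alternative values of the 9 genes in 5 comparisons, 544 kept their direction and side of the threshold, 20 lost a call, 8 gained one and 1 turned its sign. The last was A02734 in S0 against C0 without the Katherine C0 library (log2 -0.039, adjusted p = 0.997), and its values ran from there to 0.53 over the libraries left out. Among the other named genes, H03518 turned in C1 against C0 without the Katherine C1 library (log2 -0.46, adjusted p = 0.824), where leaving out a library gave up to 1.20. Neither was called in any fit of that comparison reported here. The cause was not tested.

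The size factors of DESeq2 lowered the median log2 difference of changes over all transcripts to -0.13 and ended the call of CLPC there (adjusted p = 0.0115), and the DESeq2 test added J00025 in that comparison (log2 -0.75, adjusted p = 0.00158). Counts over all transcripts moved by over 1.5 times for S0 against C0, at 138 with DESeq2's test, 207 with the population block, 173 with the exact test and 104 with the fit on all 12 libraries, beside 69, and for population at 332 with DESeq2's test, beside 510. With the replicate block 11872 transcripts were called in S1 against S0, beside 7722, and 4264 in C1 against C0, beside 2263. Leaving out a library gave 1124 to 2410 calls in C1 against C0 and 28 to 148 in S0 against C0. Leaving out a library gave 4 to 7 members called in the difference of changes and 0 to 1 among populations. There were 8 in the difference of changes by DESeq2's test, 6 with its size factors, and 1 in S0 against C0 by the exact test and by the fit on all 12 libraries.

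Libraries of S1 and C1, or of S0 and C0, share a population but not seedlings, and deviations there correlated at 0.0521 to 0.142 and 0.0797 to 0.122. With the block A02734 was called in S1 against C1 (adjusted p = 0.00331). Choosing the longest transcript was not run, since each gene has 1. Depth limits genes such as J03121 and I01393, which had 0 to 59 reads outside S1.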
